A study of Oryctolagus cuniculus with 20 samples.

Results

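TNF, the gene of tumour necrosis factor, and FAS, the gene of a cell surface death receptor, were followed in condylar cartilage of the rabbit temporomandibular joint (the jaw joint) through 5 TNF probes and 6 FAS probes, 11 of the 43603 probes on the array and 2 of its 891 named genes. Members were all probes whose gene name or description gives TNF or FAS, each read separately. The array files name TNF on 5 probes. The 6 FAS probes carry a locus name there, with a description as a spliced variant of Fas antigen, and were matched to FAS by their RefSeq gene number and accession. RefSeq places TNF on chromosome 5 and FAS on chromosome 15 of the rabbit. All animals were male rabbits labelled as 6 months old. In the operated groups internal derangement was produced in the left joint and the cartilage was taken 1, 2, 4 or 8 weeks later, and the control rabbits were untreated. Each group had 4 one-colour arrays, 1 RNA sample per array, with 4 control and 16 operated rabbits in the design. The labels name no sham operation and give the controls no time, so surgery, derangement and elapsed time cannot be told apart. The tissue is bulk cartilage, in which fewer cells of a type and less RNA per cell cannot be told apart.

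Tumour necrosis factor is made as a membrane protein, chiefly by macrophages and T cells, and is cut free by the protease ADAM17. It acts through the receptors TNFRSF1A and TNFRSF1B, which switch on NF-kB and with it chemokines, adhesion molecules and matrix proteases. In joint cartilage it is known for raising matrix breakdown and lowering matrix synthesis by chondrocytes. FAS belongs to the same receptor family. When it binds FAS ligand it recruits FADD and the initiator caspase CASP8, which set off apoptosis of the cell. TNF mRNA is short-lived, and AU-rich elements built from the pentamer ATTTA near the 3' end are a known cause of this.

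The probes fall into 2 regions on each mRNA, and the values are given by region. Positions are counted on the target mRNA as the array design gives them, and a 60-base probe is shown by a 30-base stretch except in FAS region A. TNF region A holds 3 probes from 1529 to 1590 that share 58 bases. The first 30 bases of each are printed with the pentamer ATTTA in capitals, which 2 of the 3 contain.
TNF 1529: tATTTAtctgatcaggttgtctcactaatg
TNF 1530: ATTTAtctgatcaggttgtctcactaatgc
TNF 1531: tttatctgatcaggttgtctcactaatgct
TNF region B holds 2 probes from 1610 to 1670 that share 59 bases. The last 30 bases are printed with the hexamer AATAAA in capitals, the sequence known as the signal for poly(A) addition.
TNF 1610: agtggcgagaAATAAAgactccttaaaaaa
TNF 1611: gtggcgagaAATAAAgactccttaaaaaat
FAS region A holds 5 probes that start at 500, 501, 502, 503 and 505, end at the latest at 564 and share 55 bases. The outermost probes of that set are printed whole, with nothing in capitals.
FAS 500: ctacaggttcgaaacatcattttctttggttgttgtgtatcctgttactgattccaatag
FAS 505: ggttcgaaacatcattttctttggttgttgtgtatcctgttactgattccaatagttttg
FAS region B is 1 probe from 2679 to 2738, far downstream of region A, shown by its first 30 bases.
FAS 2679: gactagcctaaagaacatccatgaatggag

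Among all 43603 probes of 60 bases, 7.09% hold ATTTA as printed and 5.86% on the opposite strand, and 3.99% hold AATAAA as printed and 2.85% on the opposite strand. These matches describe the letters only. The probes within a region overlap almost completely and count as repeated readings of 1 site, not as independent evidence.

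A level here is log2 of the deposited signal minus the 75th percentile of that array, so 0 is the brightness at that percentile. Testing needed 1 group with 3 or more arrays well above background, a filter that 26905 probes and all 11 members passed. Each probe has its own brightness, so a gap between the levels of different probes has no meaning of its own, and such gaps are given only to see how they vary from array to array. Differences are operated minus control with the standard error (SE) of a limma fit over all 20 arrays, and a call is an adjusted p under 0.05 after Benjamini-Hochberg over the 26905 probes. The median within-group SD of tested probes was 0.329 at 1 week and 0.2 to 0.237 in the other groups. Arrays had a 75th percentile between 174.0 and 641.6 signal units, lowest on 1-week replicate 4. Each group lay on its own slide. The 1-, 4- and 8-week arrays were scanned on 1 day and the 2-week and control arrays on another, so scan day and group cannot be told apart at 1, 4 and 8 weeks against control, nor at 2 weeks against 1, 4 or 8 weeks, while 2 weeks against control and the comparisons among 1, 4 and 8 weeks lie within a day.

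Cartilage markers were present: COL2A1, ACAN and CNMD, which encode type II collagen, aggrecan and chondromodulin, were above background on all 20 arrays, and SOX9, the chondrocyte transcription factor, on 8. Their mean level was 1.56 to 4.12 at 1 week, 0.2 to 1.3 at 2 weeks, 1.85 to 3.17 at 4 weeks and 0.03 to 1.84 at 8 weeks, against 0.67 to 1.79 in control, for 4 of 9 listed genes. SOX9 was called higher at 1 week, by at least 1.99-fold (limma adjusted p = 0.0194), above background on 4 arrays there and on none in control. It passed the filter only through the 1-week group, where it is brightest, so this call is a description. The other 3 were not called, with ACAN at 1.02 and 0.58 and CNMD at 2.3 and 2.39 at 1 and 4 weeks. The cartilage mean was thus high in the groups at 1 and 4 weeks, in which TNF probes were also called. At 8 weeks, where a TNF probe was called too, the mean was 0.03 to 1.84, against 0.67 to 1.79 in control. The part of the cartilage mean in the TNF calls was not tested. Markers of other tissue were present as well. The mean level of 7 skeletal muscle genes was -4.52 to -3.46 at 1 week, -5.37 to -3.53 at 2 weeks, -5.29 to -4.79 at 4 weeks, -5.43 to -4.7 at 8 weeks and -2.16 to 4.23 in control, with 1.87 and 4.23 on control replicates 1 and 2. Of the 7 genes 7, 5, 6 and 7 were called lower at 1, 2, 4 and 8 weeks, where 4.21%, 0.212%, 2.19% and 4.3% of all tested probes were. TTN, ATP2A1, NEB and CASQ2 passed the filter only through the control group, where they are brightest, so their calls are a description. The part of the muscle genes in the TNF and FAS values was not tested. Leaving out those 2 control arrays cannot separate it, because control replicates 3 and 4, at -1.25 and -2.16, still lay above every operated array. For immune cells, 3 of 8 macrophage markers (CD14, MSR1 and TLR4) were measured, at a mean of -1.23 to -0.45, -1.16 to 0.05, -2.17 to -0.33 and -1.11 to -0.3 at 1, 2, 4 and 8 weeks and -0.19 to 0.32 in control. All 3 were called lower at 4 weeks (-1.29, -2.05 and -0.82, adjusted p = 0.0133, 0.0354 and 0.0478), where 2.19% of all tested probes were. At 1 week only TLR4 was called lower (-0.8, adjusted p = 0.0392), where 4.21% of all tested probes were, and none was called at 2 or 8 weeks. The part of these markers in the TNF values was not tested. Of the T cell list 1 of 9 was tested, CD5, above background on 10 of 20 arrays, and the defining gene CD3E was above background on 1 array.

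At 1 week the 3 probes of TNF region A rose against control, by 0.82 ± 0.24, 0.80 ± 0.22 and 0.97 ± 0.28 on the log2 scale (SE, n = 4 and 4, limma adjusted p = 0.0294, 0.022 and 0.0277). That is 1.77-, 1.74- and 1.95-fold. No FAS probe and no probe of TNF region B was called, so 3 of 11 members were called where 13.9% of all tested probes were. The TNF probe at 1529 had signals of 55.05, 51.11, 78.61 and 39.44 on the 1-week arrays, against 36.14, 40.69, 31.05 and 42.85 on the control arrays. Its levels were -3.05, -2.25, -2.58 and -2.14 at 1 week, against -3.75, -3.23, -3.36 and -2.97 in control. In these levels 3 of the 4 operated arrays lay above all controls and 1-week replicate 1 lay among them. Replicate 4, the highest of that group as a level, was the lowest as an unscaled signal and lay inside the control range, because the 75th percentile of that array is small.

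At position 1530 the signals were 70.23, 72.79, 94.34 and 51.22 at 1 week, against 50.13, 52.6, 49.63 and 44.68 in control. At position 1531 they were 87.92, 90.29, 120.9 and 52.76 at 1 week, against 44.26, 88.49, 50.11 and 38.79 in control. The groups overlapped as levels at both positions. These are dim probes, and dim probes as a whole lay higher: among the lowest 20% by mean level, which include the probe at 1529, the median difference at 1 week was 0.24 and 18.5% were called higher. In the next 20%, which include the other TNF A probes, the median was 0.09 and 13.3% were called higher, against 9.71% called higher over all tested probes. The part of this in the TNF values was not tested.

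The 1-week calls depended on single arrays. Without 1-week replicate 2, 1-week replicate 4 or control replicate 1, none of the 3 probes was called (adjusted p 0.0685 to 0.0817, 0.0685 to 0.0898 and 0.0775 to 0.0986 over the 3 probes). Without both control arrays of highest muscle level the differences were 0.66, 0.67 and 1.02 (adjusted p = 0.224, 0.187 and 0.0542). With normexp background correction, which compresses dim signals, they were 0.29, 0.31 and 0.37 (adjusted p = 0.988, 0.959 and 0.898).

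TNF region B had fitted differences below 0. At 1 week the probe at 1610 differed from control by -0.69 ± 0.58 and the one at 1611 by -0.52 ± 0.46 (adjusted p = 0.455 and 0.483), and neither was called. Signals at 1610 were 10.47, 56.81, 27.06 and 6.571 at 1 week, against 38.49, 46.72, 29.57 and 29.33 in control. The signal was well above background on 2, 2, 0 and 1 of 4 arrays at 1, 2, 4 and 8 weeks and on 3 of 4 in control, so this probe was tested only through the control group, where it is brightest, and its lower values elsewhere are a description. One 1-week array, replicate 2, was therefore brighter than every control and the others were dimmer.

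**Figure D1:**
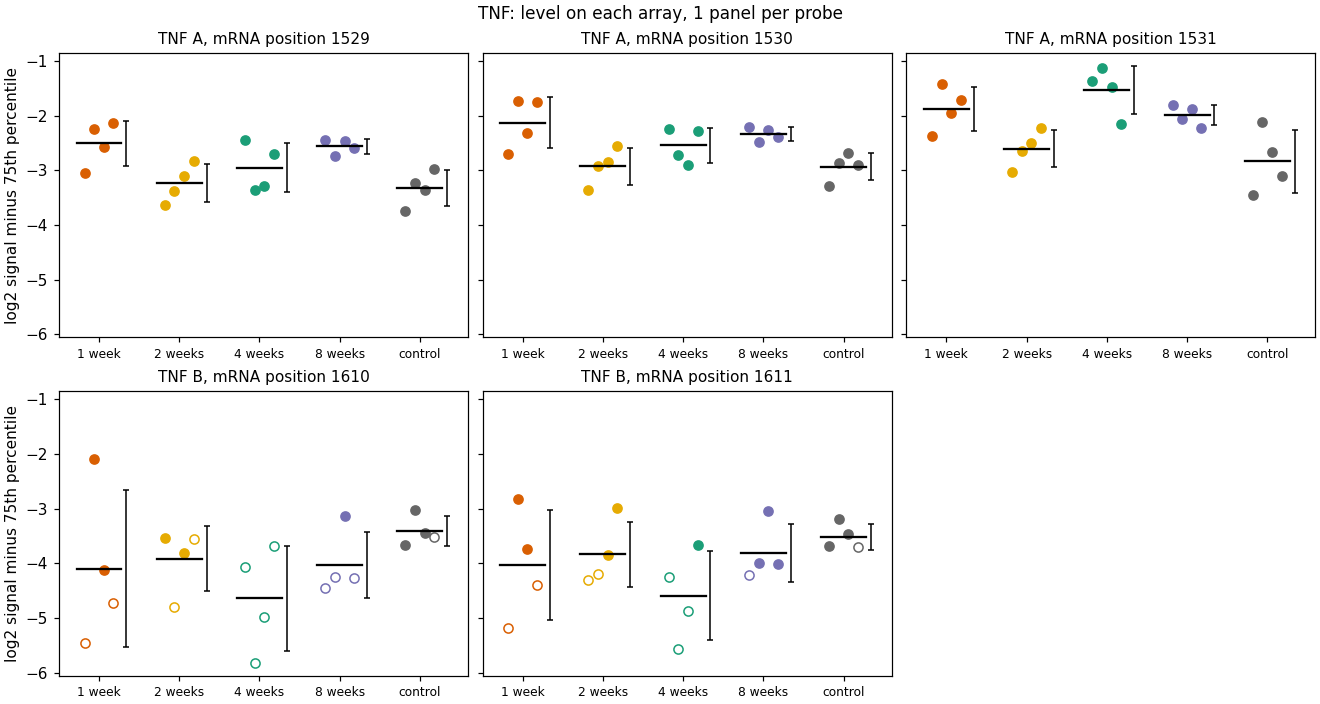
Level of each TNF probe (log2 signal minus the 75th percentile of the array, y axis) on the 4 arrays of each group (x axis). Filled points are well above background, open points are not, bars are means and the brackets beside them 1 SD. The 3 probes of region A lie higher at 1, 4 and 8 weeks than at 2 weeks and in control on average. The region B means lie below the control mean at every time, and no region B difference from control was called. The probe at 1610 was tested only through the control group, where it is brightest, so its lower means elsewhere are a description. At 4 weeks that probe was well above background on no array.

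At 2 weeks no member was called, in a comparison where 0.453% of tested probes were. TNF region A differed from control by 0.09 ± 0.24, 0.01 ± 0.22 and 0.23 ± 0.28 (adjusted p = 0.988, 0.998 and 0.936). Signals at 1530 were 45.62, 44.2, 51.24 and 51.48 at 2 weeks, against 50.13, 52.6, 49.63 and 44.68 in control. The groups overlapped throughout, and this is the comparison whose arrays were scanned on the same day. TNF region B differed by -0.51 ± 0.58 and -0.32 ± 0.46 (adjusted p = 0.929 and 0.956).

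Set against 1 week, the 2-week level at 1530 fell by 0.80 (SE 0.22, adjusted p = 0.0265), the 1 member called of a comparison with 11.4% of probes called. The levels there were -3.37, -2.93, -2.85 and -2.55 at 2 weeks, against -2.7, -1.74, -2.32 and -1.76 at 1 week. The groups overlapped by 1 array on each side. The call was lost without 1-week replicates 2 or 4 or 2-week replicates 1 or 2. These groups were scanned on different days, so time and scan day cannot be told apart.

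At 4 weeks the TNF probe at 1531 was called and its neighbours at 1529 and 1530 were not. It rose by 1.30 ± 0.28 (2.47-fold, adjusted p = 0.00651), with 8.56% of tested probes called. Signals were 189.2, 182.7, 229.5 and 112.1 at 4 weeks, against 44.26, 88.49, 50.11 and 38.79 in control. As levels, -1.36, -1.13, -1.48 and -2.16 faced -3.45, -2.11, -2.67 and -3.11, so 3 of 4 operated arrays lay above every control. The probes at 1529 and 1530 differed by 0.38 ± 0.24 and 0.39 ± 0.22 (adjusted p = 0.363 and 0.302), with signals of 38.62 to 89.8 and 60.05 to 102.4 at 4 weeks, against 31.05 to 42.85 and 44.68 to 52.6 in control. Dim probes as a whole lay higher at 4 weeks too. In the dimmest set by mean level, which includes 1529, the median difference was 0.24 and 14.8% were called higher. In the next set, which includes 1530 and 1531, the median was 0.1 and 9.22% were called higher. Over all tested probes 6.38% were called higher. The part of this in the TNF values was not tested.

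The disagreement sat on particular arrays. The level at 1531 exceeded the mean of the other TNF A probes by 0.98, 1.92 and 1.61 on 4-week replicates 1 to 3 and by 0.94 on control replicate 2, against -0.17 to 0.57 on the other arrays. The 1531 probe is printed in the last column of the array, column 85 of 85. The next spot of that column, examined after the values were seen, was above background on 3 arrays, namely 4-week replicates 1 and 2 and control replicate 2, with levels of -2.45, -1.05 and -2.52, and below background on the other 17. Its part in the 4-week value of 1531 was not tested. The 4-week value also exceeded the 2-week one, by 1.07 ± 0.28 (adjusted p = 0.0357, 4.3% of probes called), a call lost without 2-week replicates 1, 2 or 3 or 4-week replicates 1, 2 or 3 (adjusted p 0.06 to 0.125), and time and scan day cannot be told apart here either. Against control the 4-week call at 1531 was kept without any 1 array and lost with normexp background correction (0.46, adjusted p = 0.768).

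At 4 weeks region B was not called, at -1.23 ± 0.58 at 1610 and -1.07 ± 0.46 at 1611 (adjusted p = 0.205 and 0.162). The 1610 signals were 28.91, 7.088, 20.2 and 39.12 at 4 weeks, none well above background, against 38.49, 46.72, 29.57 and 29.33 in control. With no array above background at 4 weeks, these values are at background there and give no measured level.

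At 8 weeks the TNF probe at 1529 rose by 0.76 ± 0.24 (1.70-fold, adjusted p = 0.0435), 1 member of 11 called where 12.8% of tested probes were. Its signals were 64.04, 74.25, 80.01 and 79.64 at 8 weeks, against 36.14, 40.69, 31.05 and 42.85 in control, with no overlap. The probe at 1530 also showed no overlap, with signals of 75.76, 88.86, 92.27 and 90.65 at 8 weeks, against 50.13, 52.6, 49.63 and 44.68 in control, and missed the threshold (0.59 ± 0.22, adjusted p = 0.0871). Groups did not overlap upwards at 13.8% of tested probes. Dim probes as a whole lay higher here too. In the dimmest set by mean level, which includes the probe at 1529, the median difference at 8 weeks was 0.32 and 16.7% were called higher. In the next set, which includes the other TNF A probes, the median was 0.18 and 12.3% were called higher. Over all tested probes 8.46% were called higher. The part of this in the TNF values was not tested. At 1531 the difference was 0.85 ± 0.28 (adjusted p = 0.0542), with control replicate 2 inside the 8-week range. Without that control array it was 1.09 (adjusted p = 0.0183). Region B differed by -0.62 ± 0.58 and -0.30 ± 0.46 (adjusted p = 0.535 and 0.726). The call at 1529 was lost in 16 of 31 other settings, among them normexp background correction (0.11, adjusted p = 0.972), median centring (0.60, adjusted p = 0.0593) and leaving out control replicate 1 (0.62, adjusted p = 0.14).

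Over the 5 groups together an F test called the 3 probes of TNF region A (adjusted p = 0.0489, 0.0424 and 0.0133 from 1529 to 1531) and no other member, with 15.8% of tested probes called. By mean level over the groups, region A was ordered, from high to low, 1 week (-2.17), 8 weeks (-2.30), 4 weeks (-2.34), 2 weeks (-2.92) and control (-3.03). Neighbours in that order differed by less than their SD except 4 weeks and 2 weeks, with SDs of 0.42, 0.14, 0.23, 0.34 and 0.33 in the same order. That gap also parts the groups of the 2 scan days, so the order and the scan day cannot be told apart. No member was called between 4 weeks and 1 week, 8 weeks and 1 week, or 8 weeks and 4 weeks, pairs scanned on 1 day in which 1.07%, 0.0149% and 0.558% of probes were called. Nor was any between 8 weeks and 2 weeks, where 8.62% of probes were.

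**Figure D2:**
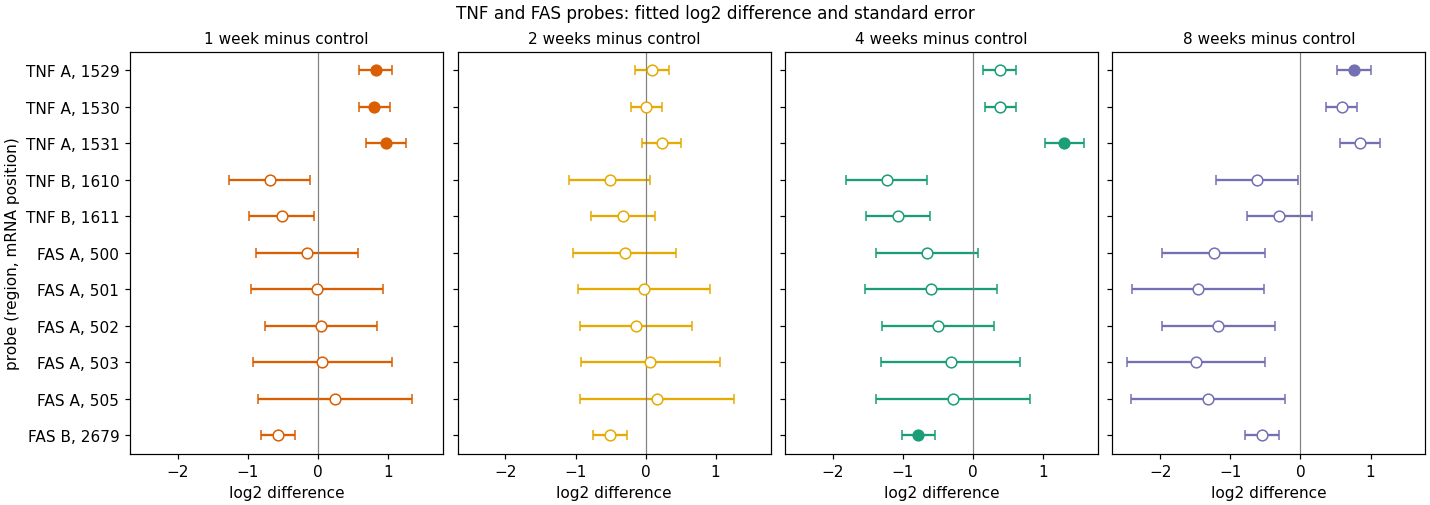
Fitted log2 difference from control (x axis) of each TNF and FAS probe (rows, by region and mRNA position) at 1, 2, 4 and 8 weeks (panels), with SE as bars. Filled points have an adjusted p under 0.05: the 3 probes of TNF A at 1 week, TNF 1531 and FAS 2679 at 4 weeks and TNF 1529 at 8 weeks.

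The contrast between the TNF regions was then taken on each array as the mean of region A minus the mean of region B, a measure chosen after the values of the probes were seen. It averaged 1.89 ± 0.95 at 1 week, 0.95 ± 0.41 at 2 weeks, 2.27 ± 0.82 at 4 weeks and 1.62 ± 0.54 at 8 weeks, against 0.43 ± 0.19 in control (SD, n = 4 each). The arrays at 1, 4 and 8 weeks ran from 0.65 to 3.28, against 0.18 to 0.62 in control. No test is given for this measure: region B was above background on only 8 and 11 of 20 arrays, and the probe at 1610 was tested through the control group alone.

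Within a region the TNF probes followed each other over the 20 arrays, with Pearson r of 0.94 between 1529 and 1530, 0.58 and 0.67 between these and 1531, and 0.92 within region B. Between regions A and B r was -0.24 to 0.26 over the 6 pairs. These r describe arrays that share groups and scan days, and those with region B rest largely on values at background.

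**Figure D3:**
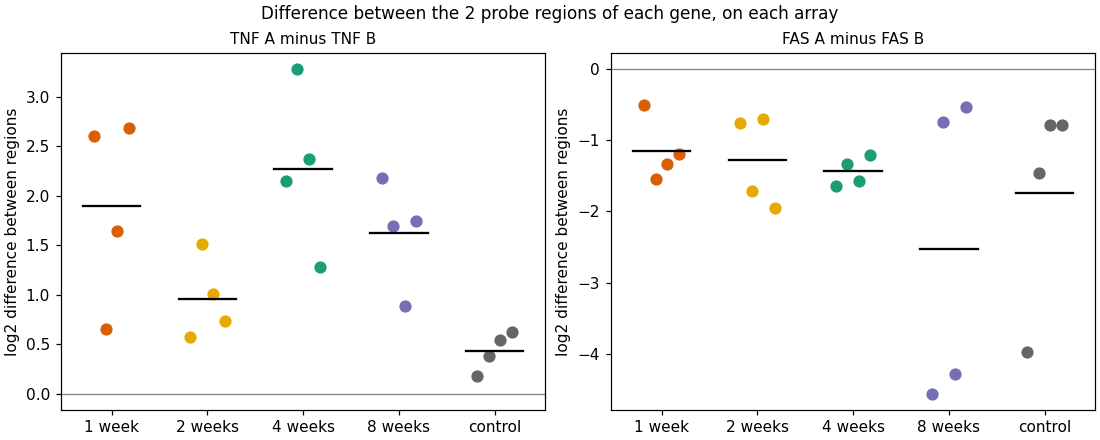
Mean level of region A minus mean level of region B on each array (y axis, log2) by group (x axis), for TNF on the left and FAS on the right. Points are arrays and bars are group means. For TNF the controls run from 0.18 to 0.62 and the 4-week arrays from 1.28 to 3.28, and for FAS 8-week replicates 1 and 3 and control replicate 1 lie far below the rest.

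FAS was called in region B at 1 time. At 4 weeks this probe fell by 0.78 ± 0.24 on the log2 scale (0.581-fold, adjusted p = 0.04997), which is at the threshold. Signals were 285.3, 142.5, 272.8 and 220.5 at 4 weeks, against 430.0, 262.5, 257.2 and 235.7 in control. As levels they were -0.77, -1.49, -1.23 and -1.18 at 4 weeks, against -0.17, -0.54, -0.31 and -0.51 in control, with no overlap. At 1 and 8 weeks the differences were -0.57 ± 0.24 and -0.55 ± 0.24 (adjusted p = 0.123 and 0.144), also with no overlap, and at 2 weeks -0.51 ± 0.24 (adjusted p = 0.629) with overlap. All 4 operated arrays lay below all controls at 5.57%, 5.86% and 8.76% of tested probes at 1, 4 and 8 weeks. The F test over the groups gave adjusted p = 0.153.

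By mean level FAS region B was ordered, from low to high, 4 weeks (-1.17), 1 week (-0.95), 8 weeks (-0.94), 2 weeks (-0.90) and control (-0.39), with SDs of 0.30, 0.43, 0.27, 0.49 and 0.17. The operated groups differed from each other by less than their SD. The 4-week call remained in 13 of 31 other settings, and the difference kept its sign in all of them, from -0.92 to -0.66. Without both control arrays of highest muscle level it was -0.76 (adjusted p = 0.247), and without 4-week replicate 2 it was -0.68 (adjusted p = 0.158).

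FAS region A was not called at any time. At 8 weeks its 5 probes differed from control by -1.17 to -1.49 with SE of 0.73 to 1.1, and at 1, 2 and 4 weeks by -0.66 to 0.24. With differences this uncertain a change of the size seen in region B was not detectable here. The spread came from a few arrays. At 505 the signals were 4.834, 142.2, 6.015 and 213.9 at 8 weeks, against 11.49, 82.74, 142.3 and 137.8 in control. At 500 they were 12.02, 152.2, 20.01 and 230.8 at 8 weeks, against 57.63, 104.4, 156.6 and 149.1 in control. Thus 8-week replicates 1 and 3 were not well above background in any of the 5 probes, nor was control replicate 1 in 3 of the 5, while the other arrays of both groups were bright.

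Region B showed no such gap on those arrays. Its levels were -1.06 and -1.15 on 8-week replicates 1 and 3, the lowest of that group. They were -0.99 and -0.55 on 8-week replicates 2 and 4. On control replicate 1 the region B level was -0.17, the highest of all 20. Region A minus region B was -4.56 and -4.29 on these 8-week arrays and -3.97 on that control array, against -1.95 to -0.51 on the other 17. The contrast averaged -2.54 ± 2.19 at 8 weeks, against -1.75 ± 1.51 in control (SD, n = 4 each), groups that overlapped. Within-group SDs of the 5 probes were 1.1 to 1.66, larger than those of 97.2% to 99.3% of tested probes, against 0.35 for region B. The 5 probes, which lie in rows 48 to 521 of the array, ran together at r = 0.97 to 0.99 over the 20 arrays, against r = 0.36 to 0.53 with region B. The 8-week replicate numbers are those of the scanner files, and the authors' deposited value table numbers the same 8-week arrays differently.

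**Figure D4:**
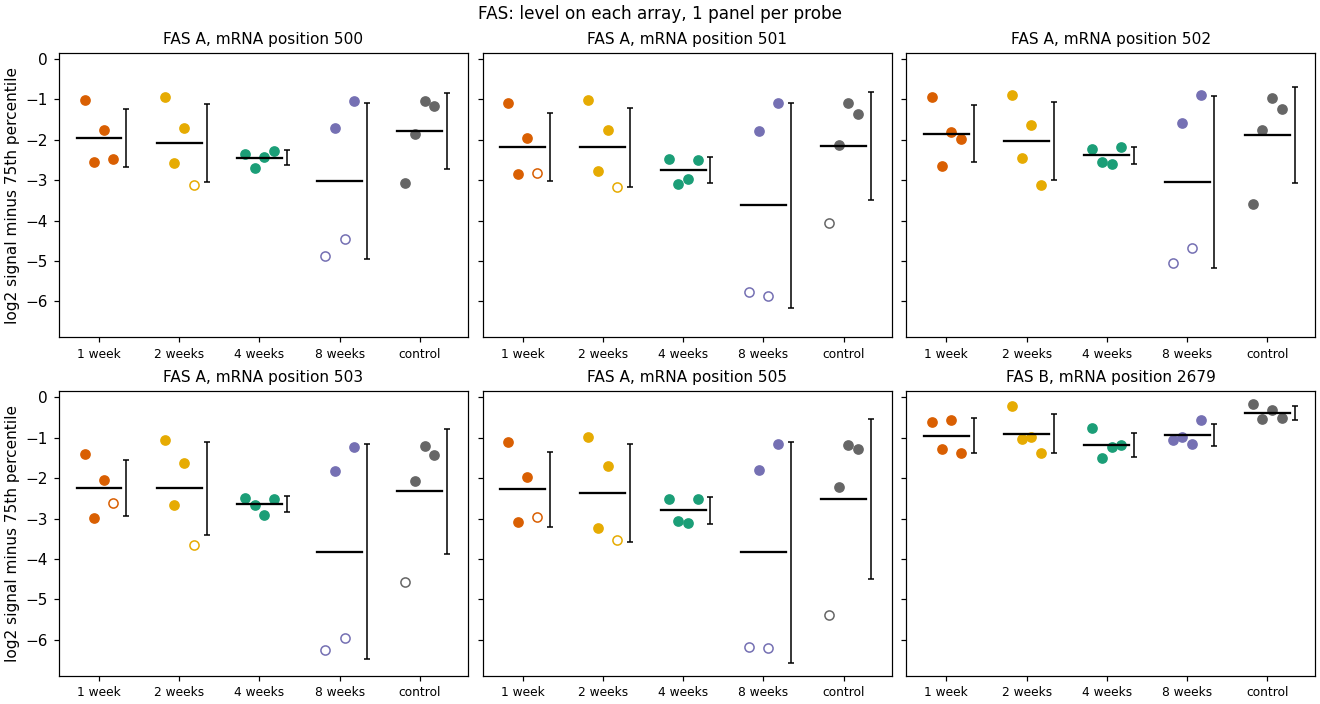
Level of each FAS probe (log2 signal minus the 75th percentile of the array, y axis) on the 4 arrays of each group (x axis), drawn as for TNF. In region A 8-week replicates 1 and 3 and control replicate 1 lie below the other arrays of their groups in all 5 panels, while in region B the control arrays lie between -0.54 and -0.17.

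Of the wider TNF and FAS pathway, 106 genes were listed, 32 had a named probe and 21 were tested, each by its tested probe of highest mean level. At 1 week 2 were called higher and 4 lower, at 4 weeks 2 and 1, at 8 weeks 2 and 1, and at 2 weeks none either way. Of all tested probes 9.71% were called higher and 4.21% lower at 1 week, 0.242% and 0.212% at 2 weeks, 6.38% and 2.19% at 4 weeks, and 8.46% and 4.3% at 8 weeks. The median difference over the 21 was -0.63, -0.08, -0.19 and -0.46 at 1, 2, 4 and 8 weeks, against 0.02, 0.04, 0.03 and 0.04 over all tested probes. No TNF receptor could be tested: of 20 receptor genes 1, TNFRSF4, had a named probe, and it did not pass the filter. Of 16 ligands 1 was tested. TNFSF13, the B cell growth factor APRIL, fell at 1 week by 0.80 ± 0.25 (adjusted p = 0.0437), with its 3 other probes called at -0.82 to -0.89, and was -0.04, -0.19 and -0.07 at the later times. The call held in 15 of 31 other settings (adjusted p up to 0.292) and ended, among others, on leaving out any of control replicates 1, 3 and 4 and 1-week replicates 1, 2 and 4. ADAM17 had 5 probes, none of which passed, and the related protease gene ADAM10 was not called at any time (-0.03 to 0.5).

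Among 34 adaptors and death genes 5 were tested. CASP2, an initiator caspase, was higher at 1, 4 and 8 weeks by at least 1.33-, 1.32- and 1.28-fold (adjusted p = 0.0101, 0.0166 and 0.0185), above background on 3, 4 and 4 arrays of these groups and on none of the control arrays. CASP2 is a dim probe that passed the filter only through these groups, where it is brightest, so these calls are a description. With normexp background correction its 4- and 8-week differences changed sign. CASP1, the caspase that matures IL1B, was not called at any time (-0.8 to 0.06). Of the NF-kB group 1 of 17 genes was tested, the anti-inflammatory hyaluronan-binding TNFAIP6, at -1.31 ± 0.60 at 1 week (adjusted p = 0.156), not called at any time.

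Among 17 genes known to be induced by TNF 13 were tested, with 1 called higher and 2 lower at 1 week, none at 2 weeks, and 1 higher and 1 lower at both 4 and 8 weeks. CXCL8, the neutrophil chemokine, rose by 1.32 ± 0.28, 1.18 ± 0.28 and 1.17 ± 0.28 at 1, 4 and 8 weeks (adjusted p = 0.0039, 0.0135 and 0.0109) and was -0.08 ± 0.28 at 2 weeks. Its levels were -1.51 to -0.26, -1.14 to -0.57 and -1.04 to -0.65 at 1, 4 and 8 weeks, against -2.35 to -1.28 in control. Of its 4 tested probes 3 had this sign, and the dimmest, above background on 12 arrays, had the opposite one at 1, 4 and 8 weeks (-2.03, -2.02 and -2.10, adjusted p = 0.0143, 0.0218 and 0.0131), so the direction of CXCL8 is uncertain. Of 6 neutrophil markers 2 were measured. CXCR2, a receptor for CXCL8, rose at 1, 4 and 8 weeks (1.55, 1.34 and 1.13, adjusted p = 2.14e-05, 0.000191 and 0.000676), and S100A9 was not called (0.4, 0.84 and 0.53, adjusted p = 0.443, 0.132 and 0.325). Their mean level was -0.83 to -0.1 at 1 week, -2.14 to -1.24 at 2 weeks, -0.66 to -0.04 at 4 weeks and -0.74 to -0.59 at 8 weeks, against -1.86 to -0.85 in control. Their part in the CXCL8 values was not tested.

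CCL2, the monocyte chemokine, differed at 1 week by -1.4 ± 0.41 (adjusted p = 0.0305), with levels of -2.15 to -1.65 at 1 week, against -0.77 to 0.19 in control and no overlap. Another CCL2 probe was called at 1 week (-2.12, adjusted p = 0.0229), and those at -0.78 and -2.24 were not (adjusted p = 0.23 and 0.0739). SOD2, the mitochondrial superoxide dismutase, fell at 1 and 8 weeks by 0.79 ± 0.14 and 0.72 ± 0.14 (adjusted p = 7e-04 and 0.00215), the smallest adjusted p of the pathway. Its levels were -1.06 to -0.51 at 1 week and -0.78 to -0.29 at 8 weeks, against -0.07 to 0.26 in control. MMP3, the stromelysin, fell at 4 weeks by 1.01 ± 0.26 (adjusted p = 0.0218), and was -0.34, -0.54 and -0.55 at 1, 2 and 8 weeks, not called. IL1B (-0.57 to -1.62), PTGS2 (-0.15 to -0.93), MMP13 (-0.63 to 0.01), MMP9 (-0.07 to 0.19) and MMP1 (-1.68 to -4.26, SE 1.36) were not called at any time. Leaving out any of control replicates 1 and 2 and 1-week replicates 1, 3 and 4 ended the CCL2 call, and any of control replicates 2 and 3 and 4-week replicates 2, 3 and 4 the MMP3 call. Both calls held in 24 of 31 other settings (adjusted p up to 0.292 and 0.214). Without control replicates 1 and 2 together CXCL8 was not called at 1, 4 or 8 weeks (adjusted p = 0.1, 0.22 and 0.204). The macrophage markers given above were lower in mean level in the operated groups than in control, beside CCL2, and their part in it was not tested.

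**Figure D5:**
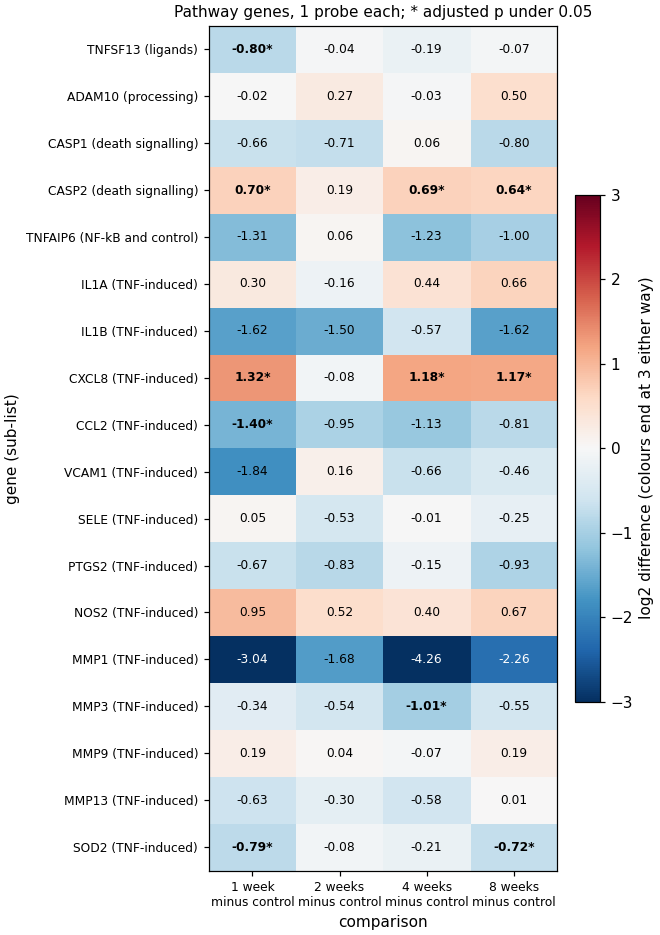
Log2 difference from control (colour and printed value) of the tested pathway genes reported here (rows, with their sub-list) at 1, 2, 4 and 8 weeks (columns), 1 probe per gene. Asterisks mark an adjusted p under 0.05, and colours end at 3 either way, which MMP1 exceeds at 1 and 4 weeks (-3.04 and -4.26).

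Genes of the most alike pattern were sought among 658 named genes over the 20 arrays. For the TNF probe at 1531 these were S1PR1 (r = 0.84), KCNC1 (0.82), CASP14 (0.82), OVGP1 (0.81) and SCNN1A (0.78). After removing the group means r was 0.56 to 0.64. The 1531 probe is the one in the last column, whose 4-week values differ from those of its neighbours, and a shared difference from control follows from how these genes were picked. For FAS region B they were S100A10 (0.80), CAV1 (0.79), MMP12 (0.76), CALD1 (0.73) and PHKB (0.70), with r of 0.60 to 0.86 after removing the group means. FAS region B and TNF region A ran against each other over the arrays, at r = -0.72 to -0.47 for the 3 TNF probes, arrays that share the group differences of both genes.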

How the data were processed

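Per the file headers and the submitters' processing notes, the authors read each array with Agilent Feature Extraction 10.7.1.1, which gave an intensity per spot in linear units, subtracted background and replaced low signals by a small positive value. From this deposited intensity, log2 minus the 75th percentile of each array was taken. Outlier spots (5 to 62 per array) were left out, and no spot was saturated. A value called well above background uses the deposited flag. Differences were fitted with limma 3.58.1 in R 4.3.3 (lmFit and eBayes, 5 group means, no covariate), a script first tested on simulated data. In the 10 pairwise comparisons p-values are two-sided, and the F test asks for any difference among the groups, with no direction. Probes had names for 2613 of 43603, through the RefSeq table, the files' gene names and their descriptions. An "at least" fold sets the brighter group against the lowest signal above background of each array. The 4 arrays per group limit the precision. The text names all member probes, pathway genes called against control and the 5 most alike genes. Some pathway genes that enter the list counts are not reported here by name. Members and lists were chosen with earlier results of these data known. P-values cover the spread between these arrays, and the design text puts separate rabbits in each group.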

Additional observations from a re-analysis of the deposited data

Results flagged for a closer look

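The level of the TNF probe at 1610 on 8-week replicate 3 was -3.14, far above the other 8-week arrays (-4.45 to -4.25). The gap took 0.84 of the range of the group, past the limit for 4 values, as 1 of 55 sets of 4 values examined, and chance alone gives about 1 in 20. Differences from control in TNF region A differed between times, by a test of the difference itself, at 2 probes, in groups scanned on different days, so time and scan day cannot be told apart. At 1530 the 2-week value was below the 1-week one (-0.80, limma adjusted p = 0.0265), and at 1531 the 4-week value was above the 2-week one (1.07, limma adjusted p = 0.0357).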

How the results depend on the processing

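Probes of TNF and FAS called at 1 week against control numbered 3, and 0 with normexp background correction, with only the 2 groups compared and without control replicates 1 and 2 (0 to 3 when leaving out 1 array). At 4 weeks they numbered 2, and 0 with normexp and 1 with quantile normalisation, the authors' deposited value table, no filter on dim probes or without control replicates 1 and 2 (1 to 2 when leaving out 1 array). At 8 weeks they numbered 1, and 0 with normexp, median centring, quantile normalisation, no filter, an eBayes trend or without control replicates 1 and 2, 4 with array weights and 2 with only the 2 groups compared (0 to 2 when leaving out 1 array). For 2 weeks against 1 week the count was 1, and 0 with normexp or only the 2 groups (0 to 3). For 4 against 2 weeks it was 1, and 0 with normexp, quantile normalisation, no filter or only the 2 groups (0 to 1). For 8 against 2 weeks it was 0, and 1 with array weights. The F test called 3, and 0 with normexp and 1 with quantile normalisation, no filter or without control replicates 1 and 2 (1 to 3). CASP2 turned to -0.23 at 4 weeks and -0.21 at 8 weeks with normexp, an alternative for pathway genes chosen after seeing the data. The cause of these shifts was not tested, beyond the fewer arrays or the larger number of probes where those define the setting. Over all probes, normexp left 44, 0, 28 and 35 calls at 1, 2, 4 and 8 weeks, against 3745, 122, 2304 and 3433. Median centring moved the median of all tested probes to -0.12, -0.10 and -0.12 at 1, 4 and 8 weeks, and the share of calls that were higher to 49.5%, 53.2% and 39%, against 69.7%, 74.5% and 66.3%. A replicate block called 2 members at 8 weeks and moved no other member count by over 1.5 times. Same-numbered arrays deviated together no more than others (median r 0.01 and -0.01), so no pairing by number was seen in these values. The labels do not settle whether the numbers pair arrays. TNF region B, above background on 8 and 11 of 20 arrays, is limited by signal.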
